A study of Mus musculus with 6 samples.

Results

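The genes described here are the tumour necrosis factor (TNF) receptor superfamily, its ligands and the adaptors that carry its signals, a list of 44 genes given by symbol. The array rows named 42 of them, among 19752 genes in all: 22 receptors, 13 ligands and 7 adaptors. The adaptors *Traf3* and *Ripk1* were not analysed here.

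The study asked what the histone H3K27 demethylases Jmjd3 (encoded by *Kdm6b*) and Utx (*Kdm6a*) do in T-cell development. RNA was compared between mature CD4 single-positive (SP) thymocytes of wild-type and of Jmjd3- and Utx-deficient (dKO) mice on 6 Affymetrix arrays, 3 for each genotype. All 6 samples were sorted cells with high Vα2 and low CD24 on the surface (Vα2hi CD24lo), and all carried the OT-II T-cell receptor transgene, whose receptor is restricted by MHC class II. In dKO mice, a *Cd4*-Cre transgene deleted floxed *Jmjd3* and *Utx* alleles (genotype label Jmd3f/f-utxf/f) from the CD4+CD8+ double-positive (DP) stage on. The wild-type mice carried no Cre, and the controls of the study were floxed littermates, so Cre and the deletions differed together between the groups. The labels give neither age nor sex for these samples; the methods state a range of ages for all mice of the study and the use of females unless noted otherwise. The labels call the 3 samples of a group biological replicates without saying that each came from a different mouse. A p-value thus weighs a difference against scatter among samples, 3 per group, and not scatter known to be among mice. In the main fit (limma), the scatter of each gene was also drawn towards a value common to all genes.

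Values are log2 units after robust multi-array averaging (RMA), and all changes are dKO minus wild-type on that scale. A gene was called lower or higher at an adjusted p under 0.05 (limma, Benjamini-Hochberg over all 19752 genes). By that rule, 10.0% of all genes were lower in dKO cells and 13.1% were higher. *Utx* RNA was lower in dKO cells by 1.59-fold (adjusted p = 2.62e-05), with the 3 dKO arrays at 9.40 to 9.58 and the wild-type arrays at 10.11 to 10.20. *Jmjd3* RNA differed by -0.09 (adjusted p = 0.32), and whether its probes lie inside the deleted exons was not tested. Arrays of the same genotype correlated at 0.998 to 0.999 across genes, and arrays of different genotypes at 0.991 to 0.993. The 5 measured conventional T-cell markers (*Cd3e*, *Cd3g*, *Cd4*, *Lat* and *Bcl11b*) averaged 11.10 or more in both groups, with 1 lower in dKO cells (*Lat*, -0.15, adjusted p = 0.0289), and the 6 natural killer and innate T-cell markers were all dimmer than the median gene. The array median was 6.27 to 6.32 and the first quartile 4.97 to 5.01, so a value near 5 lies near or below the first quartile, where background compresses differences.

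Receptors of the TNF superfamily are bound by trimeric ligands, many of them held on the surface of a neighbouring cell. Most receptors recruit TNF receptor-associated factors (TRAFs) and activate NF-κB and MAP kinases, whereas a subset carries a death domain in its cytoplasmic tail and can recruit Tradd or Fadd. In the thymus, CD4 SP thymocytes present lymphotoxin, CD40 ligand and RANKL to medullary epithelium, whereas the receptors OX40, GITR and TNFR2 on thymocytes take part in the differentiation of regulatory T-cells (Treg).

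Receptors were lower in dKO cells more often than higher. Of 22 receptors, 7 were lower (31.8%) and 1 higher (4.55%), with 14 not past the threshold. The median change over the 22 was -0.11, beside a median of 0.01 over all genes. Reductions of 2-fold or more reached 3 receptors, against 0.582% of all genes; no receptor rose by 2-fold or more, as did 0.223% of all genes. Calls were more frequent among brighter genes, with 16.7% lower and 23.2% higher among genes above the median level. All 8 receptors that were called were above the median level, as were 16 receptors in all.

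**Figure D1:**
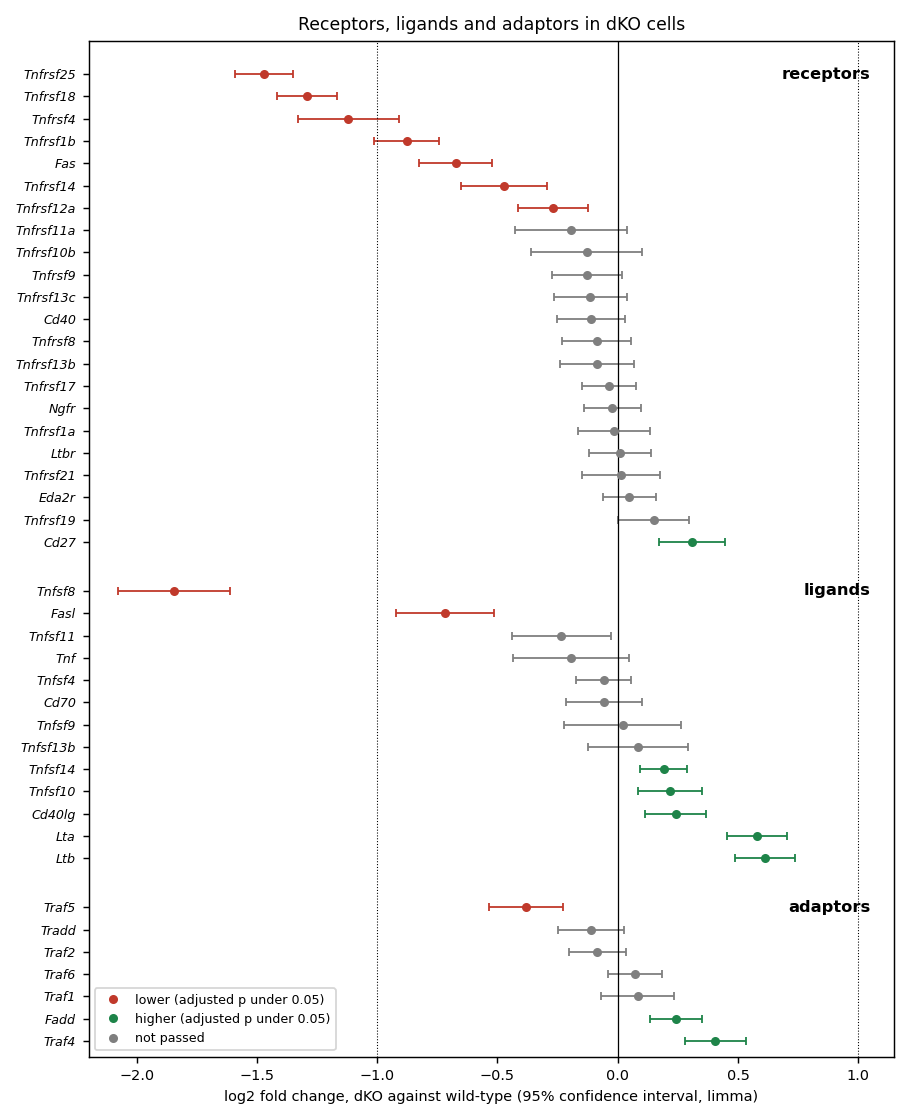
Log2 fold change of dKO against wild-type (x axis) for each of the 42 measured genes, in 3 groups from top to bottom (receptors, ligands, adaptors), ordered by size within each. Points are the limma estimate from 3 arrays per genotype and bars its 95% confidence interval; red genes were lower, green genes higher and grey genes did not pass an adjusted p of 0.05, and dotted lines mark 2-fold changes.

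The costimulatory receptors showed the most calls, with 4 of 7 lower (57.1%) and 1 higher (14.3%), beside 10.0% and 13.1% of all genes. Of these 7, 6 were above the median level, where the shares were 16.7% and 23.2%. *Tnfrsf18* encodes GITR, a costimulatory receptor found at high levels on Treg cells. It read 9.96, 10.06 and 9.98 on the 3 wild-type arrays, and 8.80, 8.67 and 8.65 on the 3 dKO arrays. *Tnfrsf4* encodes OX40, which supports survival and expansion of activated T-cells. It read 8.47, 8.41 and 8.49 in wild-type cells and 7.59, 7.25 and 7.17 in dKO cells. For both genes every dKO array lay below every wild-type array. *Tnfrsf18* RNA fell 2.45-fold (log2 change -1.29, SE 0.06, adjusted p = 3.87e-07), to 40.9% of the wild-type level, and *Tnfrsf4* RNA 2.17-fold (-1.12, SE 0.09, adjusted p = 2.54e-05), to 46.0%.

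*Tnfrsf4* and *Tnfrsf18* are near neighbours on chromosome 4, with only *Gm16008* (-0.22, adjusted p = 0.0458) between them among the measured genes. Their promoter windows are shown because both genes fell, 250 bases before to 50 bases after the RefSeq start (GRCm38.p6), with CpG dinucleotides, the sites of DNA methylation, in capitals. The *Tnfrsf4* window is chr4:156013445-156013744 and the *Tnfrsf18* window chr4:156026072-156026371, both on the plus strand.
Tnfrsf4: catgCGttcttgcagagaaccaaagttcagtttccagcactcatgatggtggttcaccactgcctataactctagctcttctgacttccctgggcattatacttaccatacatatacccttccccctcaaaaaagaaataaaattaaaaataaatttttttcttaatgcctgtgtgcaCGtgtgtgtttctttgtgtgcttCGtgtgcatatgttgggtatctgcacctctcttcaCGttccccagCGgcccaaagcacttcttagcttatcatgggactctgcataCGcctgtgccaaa
Tnfrsf18: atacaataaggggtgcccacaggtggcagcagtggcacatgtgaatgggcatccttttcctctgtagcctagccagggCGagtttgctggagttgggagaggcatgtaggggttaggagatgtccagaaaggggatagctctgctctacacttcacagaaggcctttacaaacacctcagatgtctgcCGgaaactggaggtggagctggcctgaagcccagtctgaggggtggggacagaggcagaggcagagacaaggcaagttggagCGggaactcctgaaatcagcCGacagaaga
The windows held 6 and 4 CpG, against a median of 7 and an upper quartile of 20 over the 32851 promoter windows of the same table, so both were poorer in CpG than the median window.

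The genes around them did not fall by a like amount. Of the 10 nearest other measured genes, 5 on each side of the pair, 1 was lower and 2 were higher in dKO cells, and their changes ran from -0.24 to 0.50. *Sdf4*, the next gene before *Tnfrsf4*, changed by 0.13 (adjusted p = 0.06), and *Ttll10*, the next after *Tnfrsf18*, by -0.09 (adjusted p = 0.34).

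**Figure D2:**
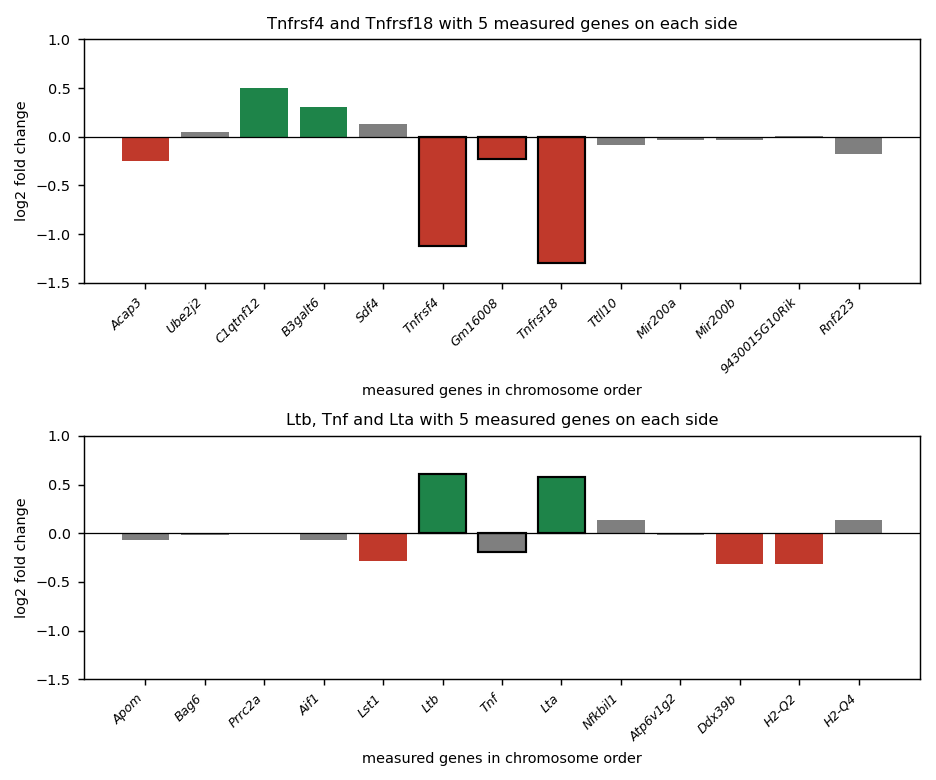
Log2 fold change of dKO against wild-type (y axis) for measured genes in chromosome order (x axis, equal spacing), around *Tnfrsf4* and *Tnfrsf18* (top) and around *Ltb*, *Tnf* and *Lta* (bottom). Bars are limma estimates from 3 arrays per genotype, red lower, green higher and grey not past an adjusted p of 0.05, and black outlines mark the genes from the first to the last family member; the 10 neighbours of the receptor pair lie between -0.24 and 0.50, those of the ligand genes between -0.31 and 0.13.

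*Tnfrsf1b* encodes TNFR2, the TNF receptor without a death domain. It read 8.58, 8.61 and 8.58 in wild-type cells and 7.84, 7.64 and 7.65 in dKO cells, with no overlap, a 1.84-fold reduction (-0.88, SE 0.06, adjusted p = 6.79e-06). The death-domain TNF receptor, *Tnfrsf1a* (TNFR1), read 9.80 to 9.93 in wild-type and 9.74 to 9.98 in dKO cells. Its groups overlapped, and the interval of its difference was -0.16 to 0.13 (adjusted p = 0.91). Thus of the pair of receptors for TNF, TNFR2 RNA was lower, and no difference in TNFR1 RNA was detected.

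*Tnfrsf14* encodes HVEM, which binds LIGHT, lymphotoxin α and the inhibitory receptor BTLA. It read 10.68, 10.65 and 10.37 in wild-type cells and 10.08, 10.18 and 10.03 in dKO cells, a change of -0.47 (1.39-fold, SE 0.08, adjusted p = 0.0020). Wild-type array 3 was the lowest of its group and still stood above every dKO array. *Cd27*, a costimulatory receptor that is bright on naive T-cells, was the only receptor that rose. It read 11.72, 11.88 and 11.93 in wild-type cells and 12.18, 12.14 and 12.13 in dKO cells (0.31, 1.24-fold, adjusted p = 0.0047), again with no overlap. The other costimulatory receptors, *Tnfrsf8* (CD30) and *Tnfrsf9* (4-1BB), changed by -0.09 and -0.13 and did not pass the test (adjusted p = 0.39 and 0.21).

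GITR, OX40 and TNFR2 are expressed at high levels on Treg cells, and Treg marker RNA moved with them. All 8 Treg markers measured were lower in dKO cells: *Foxp3* by 0.89, *Il2ra* by 0.95, *Ikzf2* by 0.94, *Ctla4* by 0.91, *Nrp1* by 0.65, *Capg* by 0.58, *Izumo1r* by 0.53 and *Il2rb* by 0.29 log2 units. Their summed linear level was 2814 to 3032 on the wild-type arrays and 1816 to 1954 on the dKO arrays. *Foxp3*, which defines the lineage, read 7.66 to 7.78 in wild-type and 6.81 to 6.86 in dKO cells. In bulk RNA, fewer cells of a type and less RNA per cell cannot be told apart, and the part of Treg cells in the receptor values was not tested. Within the dKO group, array 1 held the highest value of *Tnfrsf25*, *Tnfrsf18*, *Tnfrsf4* and *Tnfrsf1b*. Of the other lowered receptors, *Fas* was highest on dKO array 3, and *Tnfrsf14* and *Tnfrsf12a* on dKO array 2. Among the 8 Treg markers, dKO array 1 was the highest for 3 (*Il2ra*, *Ikzf2* and *Ctla4*) and the lowest for 4 (*Foxp3*, *Nrp1*, *Il2rb* and *Izumo1r*). The order of 3 arrays cannot tell what part Treg cells had in the receptor values. Without dKO array 1 the changes of *Tnfrsf25*, *Tnfrsf18*, *Tnfrsf4* and *Tnfrsf1b* were -1.51, -1.34, -1.25 and -0.94.

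Among the 6 death-domain receptors, 2 were lower (33.3%) and 0 higher, beside 10.0% and 13.1% of all genes. Of these 6, 5 were above the median level, where the shares were 16.7% and 23.2%. *Tnfrsf25* encodes DR3, the receptor of TL1A, which costimulates T-cells despite its death domain. It read 8.23, 8.30 and 8.17 in wild-type cells and 6.84, 6.72 and 6.73 in dKO cells. This was the largest change of any receptor, 2.77-fold (-1.47, SE 0.05, adjusted p = 1.23e-07), and the dKO level was 36.1% of wild-type. *Fas*, the receptor that triggers apoptosis through Fadd and caspase-8, read 7.89, 8.11 and 7.94 in wild-type cells and 7.29, 7.24 and 7.40 in dKO cells. The groups did not overlap, and the change was 1.60-fold (-0.67, SE 0.07, adjusted p = 7.63e-05). The TRAIL receptor *Tnfrsf10b* (-0.13), *Tnfrsf21* (DR6, 0.01), *Ngfr* (the p75 neurotrophin receptor, -0.02) and *Tnfrsf1a* did not pass the test.

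**Figure D3:**
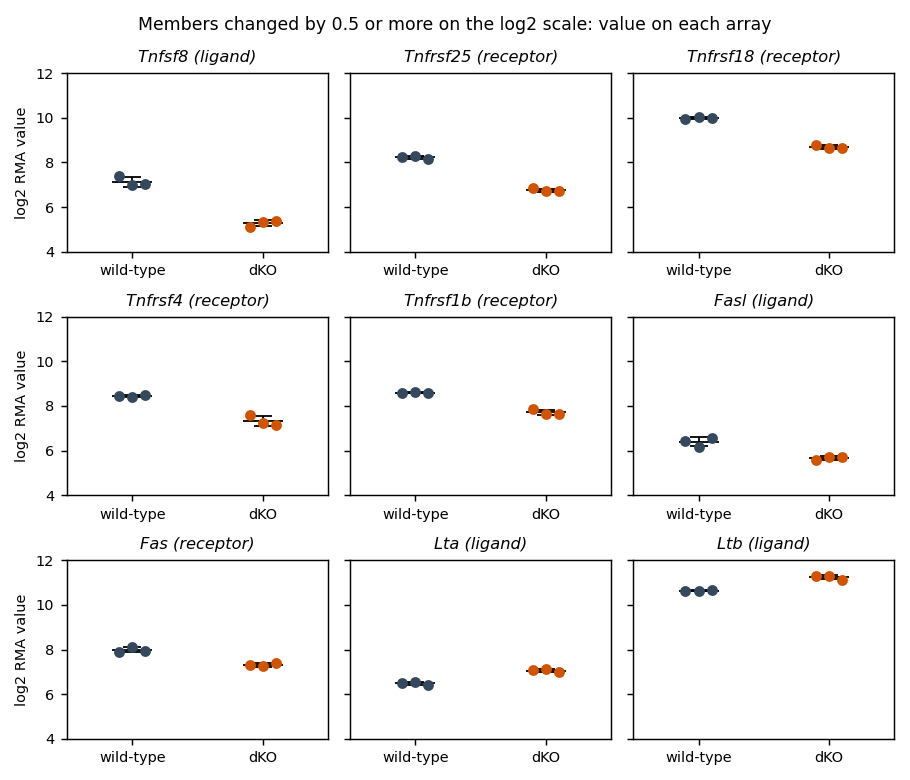
Log2 RMA value (y axis) on each of the 3 wild-type and 3 dKO arrays (points, arrays 1 to 3 from left to right within a group) for the 9 genes that were called with a change of 0.5 or more. Horizontal marks and bars are the group mean and SD, n = 3; in every panel the groups do not overlap, with 7 genes lower and *Lta* and *Ltb* higher in dKO cells.

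The receptors that act mainly on stromal, antigen-presenting or B cells did not pass the test. *Ltbr*, the lymphotoxin β receptor of stromal cells, changed by 0.01, with values of 5.75 to 5.94 in wild-type and 5.82 to 5.90 in dKO cells, below the median of the arrays. *Cd40* (-0.11) and *Tnfrsf11a*, which encodes RANK (-0.19), and the B-cell receptors for BAFF and APRIL, *Tnfrsf13b* (-0.09), *Tnfrsf13c* (-0.11) and *Tnfrsf17* (-0.04), overlapped between the groups. Of 5 B-cell markers measured, 4 were dimmer than the median gene, and *Cd79b*, the brighter one, was lower in dKO cells (-0.63, adjusted p = 1.19e-05; summed linear level 261 to 275 in wild-type and 211 to 219 in dKO cells). The remaining receptors gave 1 call. *Tnfrsf12a*, the TWEAK receptor, read 7.50, 7.58 and 7.64 in wild-type cells and 7.24, 7.43 and 7.24 in dKO cells (-0.27, adjusted p = 0.0135), a call that was lost without dKO array 1 (adjusted p = 0.0524) or dKO array 3 (adjusted p = 0.0521). *Tnfrsf19* (0.15) and *Eda2r* (0.05) did not pass. Over the 14 receptors that did not pass, changes ran from -0.19 to 0.15, the smallest adjusted p was 0.15, and the widest 95% interval bounds were -0.43 and 0.30.

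Several of the lowered receptors lie on chromosome 4, a grouping chosen after their values were seen. Of 7 receptors on chromosome 4, 5 were lower (*Tnfrsf25*, *Tnfrsf18*, *Tnfrsf4*, *Tnfrsf1b* and *Tnfrsf14*) and 0 higher, whereas *Tnfrsf8* and *Tnfrsf9* did not pass. Of 15 receptors on other chromosomes, 2 were lower (*Fas* and *Tnfrsf12a*, 13.3%) and 1 higher (6.67%), beside 10.0% and 13.1% of all genes. Over all 1141 measured genes on chromosome 4, 105 were lower (9.20%) and 179 higher (15.7%). *Tnfrsf1b* and *Tnfrsf8* adjoin each other among the measured genes and differed in outcome, -0.88 and -0.09. Around *Tnfrsf25*, 1 of the 10 nearest measured genes was lower and 0 were higher, with changes from -0.69 to 0.11. The lower gene was *Acot7* (-0.69, adjusted p = 0.00031). The immediate neighbours *Plekhg5* (0.04) and *Espn* (-0.13) did not pass the test.

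Ligands went both ways. Of 13 measured, 2 were lower (15.4%), 5 were higher (38.5%) and 6 did not pass, and the median change was 0.02. Over all genes the shares were 10.0% lower and 13.1% higher. Above the median level, where 6 of the 13 ligands lay, they were 16.7% and 23.2%. The largest change of any gene described here was in *Tnfsf8*, which encodes CD30 ligand and lies on chromosome 4 too. It read 7.37, 6.98 and 7.04 in wild-type cells and 5.12, 5.35 and 5.38 in dKO cells, 3.59-fold lower (-1.85, SE 0.10, adjusted p = 1.70e-06). The dKO values lay close to the first quartile of the arrays, where a fold change is compressed. *Tnfsf15*, the ligand of DR3 and the next measured gene to *Tnfsf8*, changed by -0.13 (adjusted p = 0.06), and its dKO arrays lay below the wild-type arrays. Of the 10 nearest measured genes around this pair, 2 were lower and 1 was higher, and none changed by more than 0.55 log2 units. The *Tnfsf8* promoter window, shown as that of the gene with the largest change, is chr4:63861235-63861534 on the minus strand and holds 9 CpG, in capitals.
Tnfsf8: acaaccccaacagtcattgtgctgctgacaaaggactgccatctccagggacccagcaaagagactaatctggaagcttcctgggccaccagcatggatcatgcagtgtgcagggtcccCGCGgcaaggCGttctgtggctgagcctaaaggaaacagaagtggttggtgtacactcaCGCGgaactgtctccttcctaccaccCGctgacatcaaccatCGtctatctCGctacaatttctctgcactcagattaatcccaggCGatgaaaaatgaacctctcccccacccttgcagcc

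*Fasl*, the death ligand that binds Fas, read 6.45, 6.17 and 6.56 in wild-type cells and 5.58, 5.72 and 5.72 in dKO cells. It was 1.65-fold lower (-0.72, SE 0.09, adjusted p = 0.00035), without overlap. The other death ligand, *Tnfsf10* (TRAIL), moved the other way by less. It read 7.83, 7.86 and 7.93 in wild-type cells and 8.20, 8.01 and 8.06 in dKO cells (0.22, adjusted p = 0.0250). That call did not hold without wild-type array 1 (adjusted p = 0.0782), wild-type array 2 (0.0833) or dKO array 1 (0.0774).

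The lymphotoxin genes rose together. *Ltb* encodes lymphotoxin β, which anchors lymphotoxin α in a surface heterotrimer that binds the lymphotoxin β receptor. It read 10.62, 10.61 and 10.66 in wild-type cells and 11.31, 11.28 and 11.13 in dKO cells. *Lta* encodes lymphotoxin α, and read 6.49, 6.54 and 6.41 in wild-type and 7.09, 7.11 and 6.98 in dKO cells. All dKO arrays lay above all wild-type arrays for both genes. *Ltb* was 1.53-fold higher (0.61, SE 0.06, adjusted p = 4.47e-05) and *Lta* 1.49-fold higher (0.58, SE 0.05, adjusted p = 5.50e-05).

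*Tnf* lies between them on chromosome 17 and did not pass the test. It read 7.72, 8.17 and 8.18 in wild-type cells and 7.80, 7.90 and 7.79 in dKO cells, a change of -0.19 (adjusted p = 0.25). The lowest value was that of wild-type array 1, without which *Tnf* was lower in dKO cells (-0.35, adjusted p = 0.0026). Of the 10 nearest genes outside the *Ltb*, *Tnf* and *Lta* block, 3 were lower and 0 higher, with changes from -0.31 to 0.13. The promoter windows of the risen genes are shown for the same reason as those of the receptor pair, with CpG in capitals. The *Ltb* window is chr17:35194257-35194556 on the plus strand (7 CpG), and the *Lta* window chr17:35205302-35205601 on the minus strand (10 CpG).
Ltb: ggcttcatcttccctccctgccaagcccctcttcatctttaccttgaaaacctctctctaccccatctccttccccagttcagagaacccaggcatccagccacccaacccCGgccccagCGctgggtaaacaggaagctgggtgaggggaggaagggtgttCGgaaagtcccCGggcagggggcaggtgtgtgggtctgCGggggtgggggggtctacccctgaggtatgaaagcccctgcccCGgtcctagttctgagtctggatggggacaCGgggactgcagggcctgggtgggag
Lta: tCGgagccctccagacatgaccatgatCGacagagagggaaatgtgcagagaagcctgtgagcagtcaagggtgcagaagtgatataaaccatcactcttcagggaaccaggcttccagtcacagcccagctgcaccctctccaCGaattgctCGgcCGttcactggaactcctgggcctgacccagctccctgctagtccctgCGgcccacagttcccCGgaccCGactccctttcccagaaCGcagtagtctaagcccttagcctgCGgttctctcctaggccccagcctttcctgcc

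The ligands that thymocytes present to medullary epithelium thus changed unequally. *Cd40lg* (CD40 ligand) read 9.73, 9.83 and 9.91 in wild-type cells and 10.02, 10.07 and 10.09 in dKO cells, an increase of 0.24 (1.18-fold, adjusted p = 0.0113). *Tnfsf11*, which encodes RANKL, read 8.28, 8.46 and 8.71 in wild-type cells and 8.26, 8.30 and 8.19 in dKO cells. It changed by -0.23 (adjusted p = 0.10), and without wild-type array 1 it was lower (-0.34, adjusted p = 0.0136). Of 6 thymic epithelial markers, 5 averaged below the median gene, and 1, *Epcam*, was higher (summed linear level 351 to 377 in wild-type and 378 to 402 in dKO cells).

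Among costimulatory ligands, *Tnfsf14* (LIGHT) read 5.52, 5.53 and 5.51 in wild-type cells and 5.73, 5.71 and 5.69 in dKO cells. This was a small increase (0.19, 1.14-fold, adjusted p = 0.0101) with a narrow spread, at a level below the array median. *Tnfsf4* (OX40 ligand, -0.06), *Cd70* (the ligand of CD27, -0.06) and *Tnfsf9* (4-1BB ligand, 0.02) averaged 4.46 to 5.08 in either group, and the B-cell factor BAFF, *Tnfsf13b* (0.09), averaged 5.20 and 5.28. None of these 4 passed the test. They are ligands known best from antigen-presenting cells. The summed linear level of 9 myeloid and dendritic-cell markers was 430 to 496 in wild-type and 432 to 698 in dKO cells, highest on dKO array 1. Of these markers 1 was lower (*Itgam*) and 1 higher (*Lyz2*).

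Receptor and ligand were set against each other in 20 pairs, and in 17 of them at least 1 of the pair did not pass the test. *Fas* and *Fasl* were the pair called in the same direction, both lower (-0.67 and -0.72), and 2 pairs were called in opposite directions. *Tnfrsf14* was lower while its ligands *Tnfsf14* and *Lta* were higher. For OX40, GITR, DR3 and TNFR2, the receptor was lower and the ligand paired with it did not pass. These ligands were *Tnfsf4* (-0.06), *Tnfsf18* (-0.0012), *Tnfsf15* (-0.13) and *Tnf* (-0.19). TNFR2 was paired with *Tnf* only. *Lta*, which was higher (0.58), was paired with TNFR1 and HVEM but not with TNFR2, so the pair counts leave out TNFR2 with *Lta*. For CD30 it was the ligand that was lower (-1.85) and the receptor that did not pass (-0.09). *Tnfrsf8* averaged 5.99 in wild-type and 5.90 in dKO cells, below the array median. *Tnfsf18* averaged 4.36 in both groups, below the first quartile, as did *Tnfsf4* (4.52 and 4.46). Background compresses differences at such levels, so a dim partner that did not pass was not shown to be unchanged. *Ltb*, *Cd40lg* and *Tnfsf10* were higher while *Ltbr*, *Cd40* and *Tnfrsf10b* did not pass.

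**Figure D4:**
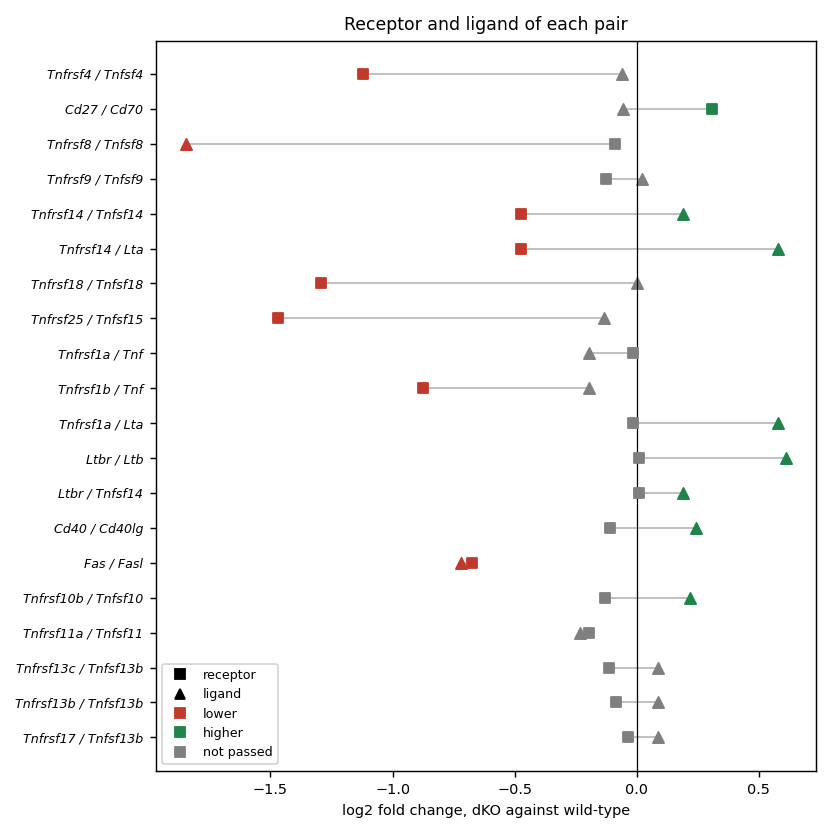
Log2 fold change of dKO against wild-type (x axis) of the receptor (square) and the ligand (triangle) of each of 20 pairs (rows), with a grey line joining them; estimates are from 3 arrays per genotype. Red is lower, green higher and grey not past an adjusted p of 0.05; *Fas* and *Fasl* are the pair with both symbols red, and *Tnfrsf14* has a red square with green triangles.

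Adaptor changes were smaller than 0.5. Of 7 measured, 1 was lower (14.3%), 2 were higher (28.6%) and 4 did not pass. All 7 were brighter than the median gene. Among all genes above the median level 16.7% were lower and 23.2% higher, so the adaptor shares were near those of genes of like level. *Traf4*, the family member least tied to TNF receptors, read 9.62, 9.64 and 9.68 in wild-type cells and 9.99, 10.16 and 10.00 in dKO cells (0.41, 1.33-fold, adjusted p = 0.00063). *Traf5*, which binds costimulatory receptors such as OX40, GITR and CD27, read 8.84, 8.74 and 8.55 in wild-type cells and 8.33, 8.31 and 8.33 in dKO cells (-0.38, 1.30-fold, adjusted p = 0.0028). *Fadd*, the adaptor of Fas, read 8.20, 8.11 and 8.20 in wild-type cells and 8.43, 8.37 and 8.43 in dKO cells (0.24, 1.18-fold, adjusted p = 0.0049). The groups of these 3 genes did not overlap. *Traf1* (0.08), *Traf2* (-0.09), *Traf6* (0.07) and *Tradd* (-0.11) did not pass, although the dKO arrays of *Traf6* (9.78 to 9.83) all lay above its wild-type arrays (9.65 to 9.77). Counted by such separation over the 42 genes, dKO values lay below wild-type in 10 and above in 9, beside 16.5% and 21.3% of all genes.

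Further along the pathway, 44 of 48 other genes were measured, among them kinases, ubiquitin ligases, NF-κB subunits and less studied receptors and ligands. Of the 44, 10 were lower (22.7%), 6 higher (13.6%) and 28 did not pass, and the median change was -0.01. Over all genes the shares were 10.0% and 13.1%. Above the median level, where 36 of the 44 lay, they were 16.7% and 23.2%. The 4 with a change of 0.5 or more were *Map3k5*, *Ikbkb*, *Tank* and *Nfkb2*. *Map3k5*, which encodes the stress kinase ASK1 that acts below TNF receptors through Traf2, read 8.15, 8.23 and 8.10 in wild-type cells and 6.51, 6.61 and 6.46 in dKO cells. It fell 3.10-fold (-1.63, SE 0.06, adjusted p = 9.39e-08), more than any receptor, and its groups lay far apart.

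*Ikbkb*, the kinase IKKβ that releases NF-κB from its inhibitor, read 9.48, 9.49 and 9.32 in wild-type cells and 8.79, 8.79 and 8.71 in dKO cells (-0.67, 1.59-fold, adjusted p = 3.52e-05). *Tank*, a TRAF-binding protein, read 9.96, 10.12 and 10.17 in wild-type cells and 9.55, 9.47 and 9.51 in dKO cells (-0.57, 1.49-fold, adjusted p = 0.00011). Both were lower on every dKO array. *Nfkb2*, the p100 subunit of the non-canonical NF-κB pathway, rose instead, from 8.36, 8.31 and 8.24 to 8.95, 8.90 and 8.75 (0.56, 1.48-fold, adjusted p = 0.00014). Its kinase *Map3k14* (NIK) changed by 0.00047 (adjusted p = 0.996). Besides *Nfkb2*, the 6 higher pathway genes included *Nfkbia* (0.42), *Relb* (0.40), *Tnfaip3* (0.27), *Tnip1* (0.26) and *Rela* (0.20). The NF-κB subunit *Rel* (-0.41) was among the 10 lower ones.

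Promoter sequence was read for the 35 measured members with an entry in the RefSeq table (39 windows of 300 bases, GRCm38.p6). *Cd40*, *Tnfrsf10b*, *Tnfsf4*, *Cd40lg*, *Cd70*, *Tnfsf9* and *Tradd* were not read. Windows of the 10 lower genes held 2 to 20 CpG (median 11), those of the 7 higher genes 6 to 33 (median 7) and those of the 18 that did not pass 4 to 43 (median 11.5), counting the richer window where a gene had several. These ranges overlap. Motifs were searched on both strands. The NF-κB consensus occurred in 4 of the 35 genes (11.4%), namely *Ltb*, *Tnfrsf25*, *Tnfrsf8* and *Tnfrsf9*, and in 5.81% of all windows. In *Ltb* the match is GGAAAGTCCC, starting 87 bases before the gene start. The forkhead motif GTAAACA occurred in 2 genes, *Ltb* and *Eda2r*, and in 3.65% of all windows. The Krüppel-like motif CCACCC occurred in 18 genes (51.4%), 6 of the 10 lower, 2 of the 7 higher and 10 of the 18 that did not pass, and in 31.5% of all windows. A gene with several windows was counted when any held a match, which can raise a share per gene beside a share per window. The NF-κB matches of *Tnfrsf25* and *Tnfrsf9* lay only in the second window of each. A match is a description of the letters only.

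Stage markers differed between the groups beside these values. Of 6 DP thymocyte markers, *Dntt* (1.52) and *Cd8b1* (0.54) were higher, *Rag1* (-0.55) and *Arpp21* (-0.25) lower, and *Rag2* and *Cd8a* did not pass. Their summed linear level was 1271 to 1458 in wild-type and 1953 to 2182 in dKO cells. The part of this difference in the receptor and ligand values was not tested.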

How the data were processed

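Sorted mature CD4 SP thymocytes of OT-II mice (3 samples of wild-type and 3 of dKO) were profiled on Affymetrix arrays (Mouse Gene 1.0 ST by the methods and the row annotation; the design text names another array). The authors deposited log2 values after RMA in Partek, which equalizes the distributions of the arrays and compresses differences of dim genes. The sources used here give no version of these tools. The number of arrays limits the precision.

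Of 25254 rows, 21496 had 1 gene symbol in the platform annotation, 1565 several and 2193 none. Only the first were used, of which 21415 matched the RefSeq table (GRCm38.p6) and 81 kept the annotated symbol. For the 938 genes with more than 1 row the brightest row was taken, leaving 19752 genes. Values were fitted with limma 3.58.1 (lmFit and eBayes, R 4.3.3) on genotype alone, across all genes, with Benjamini-Hochberg adjustment and a threshold of 0.05. The fit was tested on simulated data. Samples were grouped by the labels. Counts were made in Python 3.11.15 and plots with matplotlib 3.10.9.

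All members may be named. Members and other pathway genes called with a change of 0.5 or more are given with all 6 values, and the marker genes named come from fixed lists. The members, gene lists, markers and the pairs of receptor and ligand were chosen with earlier results of these data known. Chromosome neighbours and promoter motifs were added to describe them. The alternatives were other normalizations, a filter on dim genes, the mean of a gene's rows, another variance model, a block for the replicate number, leaving out 1 array at a time, a 2-fold minimum, and an unpaired two-tailed Student's t-test, which the study states for comparisons other than the arrays. Same-numbered arrays of the 2 groups deviated together with correlations of 0.099, 0.024 and 0.070. Differently numbered arrays gave -0.098 to 0.040, and for each wild-type array the same-numbered dKO array gave the highest value. The numbers are shared by title only and were not taken as pairs in the main fit, and the replicate block was run as an alternative.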

Additional observations from a re-analysis of the deposited data

How the results depend on the processing

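The directions of the called members held under every alternative run, and calls changed as follows. With a 2-fold minimum, 3 receptors were lower and 0 higher, 1 ligand lower and 0 higher, 0 adaptors lower and 0 higher, and 1 other pathway gene lower and 0 higher. With Student's t-test after Benjamini-Hochberg adjustment, 0 receptors, 3 ligands and 3 other pathway genes were higher and 0 adaptors lower; the calls of *Cd27*, *Cd40lg*, *Tnfrsf12a*, *Tnfrsf14*, *Tnfsf10* and *Traf5* were lost (adjusted p = 0.0662, 0.0765, 0.11, 0.0698, 0.12 and 0.0673). Over all genes that test called 1173 lower and 1392 higher, against 1976 and 2587 with limma. Unadjusted, it called 11 other pathway genes higher. Among the 9876 genes of highest mean level 0 ligands were lower, since *Tnfsf8* and *Fasl* are dimmer. *Tnfsf10* lost its call after quantile normalization again (adjusted p = 0.0520) and cyclic loess (0.0738); the cause was not tested. Cyclic loess moved the split over all genes to 2328 lower and 2222 higher. Leaving out 1 array gave 2 to 4 lower ligands, the most without wild-type array 1. Changes near 0 turned sign among arrays left out: *Tnfrsf1a* (-0.073 to 0.045), *Tnfrsf21* (-0.063 to 0.059), *Ngfr* (-0.064 to 0.00099), *Ltbr* (-0.042 to 0.050), *Cd70* (-0.12 to 0.0012) and *Tnfsf9* (-0.091 to 0.11). The replicate block changed no member's call (1970 genes lower and 2574 higher in all; 7 receptors lower). Signal near background limits *Tnfsf8* in dKO cells and the dim ligands.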
